A study of Homo sapiens with 6 samples.

Results

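Keratins are the intermediate filament proteins of epithelial cells. A type I (acidic) keratin pairs with a type II (basic) keratin, and the pairs assemble into a cytoplasmic network that is anchored at desmosomes and hemidesmosomes. Simple epithelia such as the colon are built on KRT8 with KRT18 and KRT19, and KRT20 marks differentiated intestinal cells, while stratified epithelia, skin appendages and hair use other sets. Here, 10 keratin genes (KRT7, KRT8, KRT18, KRT19, KRT20, KRT23, KRT80, KRT81, KRT17 and KRT10) were taken by symbol from the 60666 genes listed for each library. The comparison is between DNMT3B KO cells (3 libraries, genotype DNMT3B KO) and HCT116 cells (3 libraries, genotype WT), the colorectal cancer line from which the knockout was made. DNMT3B is a DNA methyltransferase. Neither line was treated, both were grown in McCoy's 5A medium, and the knockout represents a single derived line.

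The estimated counts summed to 56277217 to 67624429 in DNMT3B KO libraries and 55436267 to 68274783 in HCT116 libraries. Levels are normalized CPM, read counts scaled by TMM to a common library size, and log2 fold changes (DNMT3B KO over HCT116) come from the quasi-likelihood test of edgeR, with p-values adjusted over all 16959 genes that passed a filter on low counts. A gene was called changed at an adjusted p under 0.05. DNMT3B transcripts stood at 2.54 to 2.87 CPM in DNMT3B KO and 30.1 to 39.5 CPM in HCT116 libraries. EPCAM, an epithelial surface protein, was at 272 to 307 CPM in DNMT3B KO and 284 to 327 CPM in HCT116 libraries, while the intestinal markers CDX1, LGALS4 and CDH17 were under 0.15 CPM in every library of either line. Other markers of colorectal epithelium differed between the lines: CDH1, CLDN4 and CLDN7 were called lower and VIL1 higher in DNMT3B KO cells. VIL1 was low, at 0.555, 0.755 and 1.84 CPM in DNMT3B KO and 0.0628 to 0.0992 CPM in HCT116 libraries. It reached the filter on low counts through its DNMT3B KO libraries, which favoured a higher call. Separate cultures are not stated for the replicates in any source, and the p-values therefore measure only how far these libraries spread, which may be technical.

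Of the 10 keratins, 9 passed the filter on low counts and 8 of these were called, 2 higher and 6 lower in DNMT3B KO cells. Among all tested genes 28.1% were called, 12.9% higher and 15.1% lower. The 10 keratins and the gene lists below were chosen with earlier results of these data known. Their shares called may reflect that choice. The keratins that fell were KRT8, KRT18, KRT19, KRT10, KRT20 and KRT23, and those that rose were KRT7 and KRT80. KRT81 did not pass the test and KRT17 was too low to be tested. For all 9 tested keratins the libraries of DNMT3B KO did not overlap those of HCT116, as was the case for 45.9% of all tested genes. Upper-quartile scaling raised the share of higher genes among all calls to 57.6%, against 46.1% with TMM, but left the number of keratins called at 2 higher and 6 lower.

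The genes of the keratin pair of simple epithelium fell by nearly the same amount. KRT8 (type II, chr12:52897187-52949954, hg38, minus strand) had 1026, 957 and 1028 CPM in DNMT3B KO replicates 1, 2 and 3, against 2069, 1837 and 2628 CPM in HCT116 replicates 1, 2 and 3. On the log2 scale it fell by 1.12, with a standard error of 0.14 (adjusted p = 0.00091). Its type I partner KRT18 (chr12:52948871-52952906, plus strand), the only type I keratin that lies among the type II genes, had 569, 500 and 595 CPM in DNMT3B KO against 1164, 1042 and 1496 CPM in HCT116. Its log2 fold change was -1.15 (standard error 0.15, adjusted p = 0.00098). The DNMT3B KO libraries lay close together for each gene, and the HCT116 libraries spread more widely, with replicate 3 highest and replicate 2 lowest. In these bulk libraries, fewer cells that express a keratin and less of its RNA per cell cannot be told apart.

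The balance of KRT18 to KRT8 was nearly the same in all 6 libraries. The ratio of KRT18 to KRT8 counts was 0.555, 0.522 and 0.578 in DNMT3B KO replicates 1, 2 and 3, against 0.563, 0.568 and 0.569 in HCT116 replicates 1, 2 and 3. The difference of the log2 ratios, -0.04, was smaller than the SD between replicates, 0.05. The annotated spans of these genes overlap by 1084 bases on opposite strands. KRT8 has 51 and KRT18 has 67 numbered pseudogenes in the files, and 89.9% of the 50-base stretches of KRT8 transcripts and 85% of those of KRT18 occur in no other annotated gene. The pseudogenes together held 0.442% to 0.908% of the KRT8 count and 0.0699% to 0.218% of the KRT18 count, and the fold changes were -1.11 and -1.15 on the log2 scale when these were summed with their parents. Of the 4 KRT8 pseudogenes with at least 1 CPM, KRT8P12 was called higher (2.50 ± 0.173 CPM in DNMT3B KO and 1.13 ± 0.106 CPM in HCT116, SD, n = 3 each), while KRT8P3, KRT8P33 and KRT8P45 were not called.

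KRT19 (type I, chr17:41523617-41528308), the smallest keratin and the second type I keratin of simple epithelium, also fell. It had 351, 346 and 337 CPM in DNMT3B KO libraries and 808, 1067 and 753 CPM in HCT116 libraries, so it fell by 1.35 on the log2 scale with a standard error of 0.14 (adjusted p = 0.00031). The DNMT3B KO libraries differed by at most 1.04-fold, and HCT116 replicate 2, in which KRT8 and KRT18 were lowest, had the highest KRT19 level. Without that library the log2 fold change was -1.19 for KRT19, -1.24 for KRT8 and -1.27 for KRT18. The ratio of KRT19 to KRT18 counts was therefore 0.566 to 0.693 in DNMT3B KO and 0.503 to 1.02 in HCT116 libraries, and the lines overlapped in it.

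Per kilobase of mean transcript length, KRT8, KRT19 and KRT18 made up nearly the whole keratin pool of either line. Their level per length was 764 ± 30.8, 463 ± 9.68 and 443 ± 39.3 CPM per kilobase in DNMT3B KO cells and 1658 ± 310, 1177 ± 226 and 986 ± 188 CPM per kilobase in HCT116 cells (SD, n = 3 each). KRT19 and KRT18 did not differ beyond their spread in either line, and they changed places in DNMT3B KO cells when the longest transcript was taken as the length. The sum over 28 type I and 26 type II keratin genes was 1752, 1628 and 1751 CPM per kilobase in DNMT3B KO replicates 1, 2 and 3, against 3638, 3725 and 4253 in HCT116 replicates 1, 2 and 3, so the pool was 2.26-fold larger in HCT116. KRT8, KRT18 and KRT19 held 97.7% ± 0.215 of it in DNMT3B KO and 98.7% ± 0.275 in HCT116 cells. All other keratins held 2.35% ± 0.215 in DNMT3B KO and 1.34% ± 0.275 in HCT116 cells.

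Type I exceeded type II keratins per length in every library. The ratio of the type I to the type II sum was 1.15, 1.16 and 1.16 in DNMT3B KO replicates 1, 2 and 3, against 1.299, 1.66 and 1.12 in HCT116 replicates 1, 2 and 3. The lines overlapped, since HCT116 replicate 3 lay below all DNMT3B KO libraries. The mean difference of the log2 ratio was -0.21 with an SD between replicates of 0.20, and without HCT116 replicate 2 it was -0.06.

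**Figure D1:**
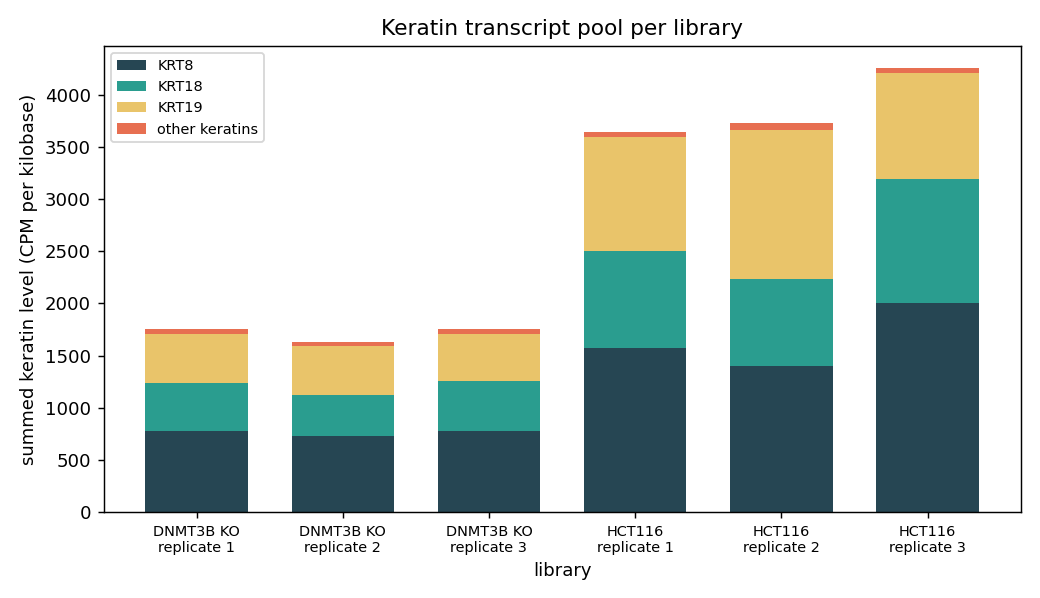
Summed keratin level in CPM per kilobase of mean transcript length for each library, DNMT3B KO replicates on the left and HCT116 replicates on the right, divided into KRT8, KRT18, KRT19 and all other keratins. The sums are 1628 to 1752 in DNMT3B KO and 3638 to 4253 in HCT116 libraries, and KRT19 takes its largest part, 38.5%, in HCT116 replicate 2.

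The largest change among the tested 9 was in KRT23 (type I, chr17:40922700-40937646), a keratin that has been studied in colorectal cancer cells. It had 6, 5 and 2 counts in DNMT3B KO replicates 1, 2 and 3, against 862, 1508 and 607 counts in HCT116 replicates 1, 2 and 3. In CPM this was 0.0832, 0.0839 and 0.0305 in DNMT3B KO and 12.98, 23.7 and 12.04 in HCT116 libraries. The log2 fold change was -7.90 (standard error 0.45, adjusted p = 1.4e-05). The libraries of the lines lay far apart, and by level per kilobase of mean transcript length KRT23 was the lowest of the 10 keratins in DNMT3B KO cells. In HCT116 cells KRT23 (14.4 ± 5.75 CPM per kilobase) and KRT10 (10.66 ± 0.982) did not differ beyond their spread, and KRT10 was the higher of them when the longest transcript was taken as the length. An lncRNA gene on the opposite strand covers all 14947 bases of KRT23 and reached at most 0.166 CPM in any library.

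KRT20 (type I, chr17:40875889-40885242), the marker of differentiated intestinal epithelium, was low in either line and fell further. It had 0.430, 0.453 and 0.274 CPM in DNMT3B KO libraries, from 31, 27 and 18 counts, and 1.24, 2.25 and 1.37 CPM in HCT116 libraries, from 82, 143 and 69 counts. The log2 fold change was -2.06 (standard error 0.36, adjusted p = 0.0041). As for KRT19 and KRT23, HCT116 replicate 2 was the highest library.

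KRT10 (type I, chr17:40818117-40822614), a keratin of the suprabasal epidermis where it pairs with KRT1, had the smallest change of those called. It had 15.2, 17.2 and 15.8 CPM in DNMT3B KO libraries and 21.1, 22.5 and 25.3 CPM in HCT116 libraries, so it fell by 0.51 on the log2 scale with a standard error of 0.11 (adjusted p = 0.012). The call was lost without DNMT3B KO replicate 1 (adjusted p = 0.058) and without DNMT3B KO replicate 3 (adjusted p = 0.055). KRT10-AS1 (TMEM99 in the files), which overlaps KRT10 by 3514 bases on the opposite strand, was at 16.9 ± 1.55 CPM in DNMT3B KO and 18.99 ± 1.09 CPM in HCT116 cells (SD, n = 3 each) and was not called (log2 fold change -0.17, adjusted p = 0.33). The libraries were stranded, but whether the counting used strand is not given in the sources used here, so reads of overlapping genes on opposite strands may not be fully separated.

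DNMT3B methylates cytosines in CG dinucleotides. The start regions of KRT10 and KRT20, from among the keratins that fell, are shown with each CG in capitals. RefSeq windows (GRCh38.p14, 250 bases before to 50 after the gene start) were matched for 3 of the 10 keratins, KRT8, KRT10 and KRT20. The KRT8 window lies 21393 bases from the start of the canonical GENCODE transcript and is neither printed nor counted below. The start regions of the other keratins, including those that rose, were therefore not examined. The windows of KRT10 (chr17:40822565-40822864) and KRT20 (chr17:40885193-40885492), both on the minus strand, read 5′ to 3′ as follows.
KRT10: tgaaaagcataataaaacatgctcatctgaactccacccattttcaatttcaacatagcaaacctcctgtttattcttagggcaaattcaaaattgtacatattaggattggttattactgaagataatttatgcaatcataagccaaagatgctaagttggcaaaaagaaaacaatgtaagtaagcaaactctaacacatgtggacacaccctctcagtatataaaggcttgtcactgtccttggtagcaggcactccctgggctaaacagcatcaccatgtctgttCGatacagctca
KRT20: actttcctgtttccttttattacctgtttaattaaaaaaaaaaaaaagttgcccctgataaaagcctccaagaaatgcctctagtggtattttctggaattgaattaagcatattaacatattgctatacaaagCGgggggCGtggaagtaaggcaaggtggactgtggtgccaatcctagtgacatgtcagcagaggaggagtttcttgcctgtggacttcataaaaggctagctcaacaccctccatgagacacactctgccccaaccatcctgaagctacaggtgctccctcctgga
The KRT10 window held 1 CG and the KRT20 window 2, where the median of 35116 such windows was 14 (quartiles 4 and 28). As few as 2 CG or fewer were found in 18.2% of all windows. Searched on both strands, TATAAA occurred once in the KRT10 window and not in the KRT20 window, against 11.5% of all windows with at least 1 match. GGGCGG occurred in neither window, against 44.95% of all. The palindromic motif TGANTCA was in neither window and in 7.71% of all. CG lies within GGGCGG, and the other motifs do not overlap it. DNA methylation was not measured in these libraries, and a link between CG content and the change of these genes was not tested.

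Among the keratins that rose, KRT80 (type II, chr12:52168996-52192014), an epithelial keratin found near desmosomes, changed most. It had 37.3, 27.8 and 33.7 CPM in DNMT3B KO replicates 1, 2 and 3, against 5.10, 2.72 and 7.52 CPM in HCT116 replicates 1, 2 and 3. The log2 fold change was 2.69 (standard error 0.33, adjusted p = 0.00071). KRT7 (type II, chr12:52232520-52252186), the keratin of ducts and glands that is used with KRT20 in pathology, had 12.5, 8.52 and 10.9 CPM in DNMT3B KO and 3.31, 2.14 and 3.65 CPM in HCT116 libraries (log2 fold change 1.81 with standard error 0.25 and adjusted p = 0.0012). In either gene the DNMT3B KO libraries were all above the HCT116 libraries, and replicate 2 was the lowest library of each line. KRT7 and KRT80 stayed far below KRT8: the level per kilobase was 17.5 ± 3.30 for KRT7 and 8.85 ± 1.29 for KRT80 in DNMT3B KO cells, and 4.99 ± 1.31 for KRT7 and 1.38 ± 0.646 for KRT80 in HCT116 cells (SD, n = 3 each). In DNMT3B KO cells they stood next after KRT8, KRT19 and KRT18. KRT10 followed at 7.47 ± 0.456 CPM per kilobase, and its libraries (7.08 to 7.97) overlapped those of KRT80 (7.48 to 10.04). With the longest transcript as the length KRT7 came after KRT80 and KRT10.

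KRT81 (type II, chr12:52285913-52291534), a keratin of the hair cortex, was higher in each DNMT3B KO library than in each HCT116 library but did not pass the test. It had 2.19, 1.53 and 1.72 CPM in DNMT3B KO and 0.723, 0.330 and 1.47 CPM in HCT116 libraries, and the fitted difference was 1.12 on the log2 scale with a standard error of 0.49 (adjusted p = 0.13). Without HCT116 replicate 3 the log2 fold change was 1.78 and the gene was called (adjusted p = 0.0098). KRT81 lies wholly within the span of KRT86 on the opposite strand. Only 55.4% of the 50-base stretches of KRT81 are unique to it and 38.4% are shared with KRT86, so reads could be divided between these genes by the counting.

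KRT17 (type I, chr17:41619442-41624842), a keratin of skin appendages and wounded epidermis, was close to the limit of detection. It had 26, 6 and 12 counts in DNMT3B KO replicates 1, 2 and 3, against 4, 0 and 4 counts in HCT116 replicates 1, 2 and 3, which is 0.361, 0.101 and 0.183 CPM in DNMT3B KO and 0.0602, 0 and 0.0794 CPM in HCT116. A count of 0 allows up to 3 counts, or 0.0471 CPM in that library, and covers counting error only. It did not pass the filter, and with no filter it was not called (adjusted p = 0.074 from edgeR). Its 8 numbered pseudogenes held 46.2% to 525% of the counts of KRT17 itself in the 5 libraries where it was counted and 17 counts in HCT116 replicate 2, and summed with them it had a log2 fold change of 0.38 (adjusted p = 0.65).

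The tested keratins can be set out by chromosomal position. Type II genes and KRT18 lie in a cluster on chromosome 12 (52168996 to 52952906) and the other type I genes in a cluster on chromosome 17 (40697991 to 41624842). Of the 56 other keratins in the files, 9 passed the filter, 4 of them were called higher and 3 lower, and 18 had no count in any library. The share called was 77.8% of these 9, against 28.1% of all tested genes (12.9% higher and 15.1% lower). KRT15 (type I), a keratin of basal cells in stratified epithelium, had 3.86, 2.40 and 3.31 CPM in DNMT3B KO and 25.7, 33.1 and 17.8 CPM in HCT116 libraries (log2 fold change -3.00 with standard error 0.27 and adjusted p = 0.00015). The remaining calls, named after their values were seen, were at under 1.1 CPM in every library. KRT13, of non-cornified stratified epithelium, and the hair keratin KRT32 were lower, and the hair keratins KRT34, KRT83 and KRT86 and the wound-related keratin KRT6A were higher.

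On chromosome 12, 5 of 7 tested type II keratins were called higher, 1 was lower (KRT8) and 1 was not called (KRT81). The genes from KRT80 to KRT6A in chromosomal order had positive fold changes of 1.12 to 2.77 on the log2 scale, and KRT8 and KRT18 at the other end of the cluster had negative ones. On chromosome 17, 7 of 9 tested type I keratins were called lower, 1 was higher (KRT34) and 1 was not called (KRT16). Over all tested genes 12.9% were called higher and 15.1% lower. KRT34 was at 0.387 ± 0.0787 CPM in DNMT3B KO and 0.0506 ± 0.00778 CPM in HCT116 cells (SD, n = 3 each). KRT222, a keratin-like gene beside this cluster, was not called (log2 fold change 0.08, adjusted p = 0.86). The annotated spans of KRT86 and KRT7 overlap by 2887 bases on the same strand, and 29.2% of the 50-base stretches of KRT6A are shared with KRT6C, so the counts of KRT86, KRT7 and KRT6A carry that uncertainty. KRT83, KRT6A and KRT34 had 8, 1 and 8, 6, 9 and 12, and 3, 3 and 3 counts in HCT116 replicates 1, 2 and 3. They reached the filter on low counts through their DNMT3B KO libraries, which favoured a higher call. KRT23 and KRT32 reached it through their HCT116 libraries, which favoured a lower call. The counts by chromosome therefore rest partly on the filter.

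Other genes near the clusters did not share one direction. Within 500 kb of the chromosome 12 cluster, 4 of 29 tested genes other than keratins were called higher and 6 lower, 34.5% in all against 28.1% over all tested genes, with a median log2 fold change of -0.12. Near the chromosome 17 cluster 8 of 34 were higher and 6 lower, 41.2% in all, with a median of 0.10, and the median over all tested genes was -0.0006. With the keratins counted in, the medians were -0.08 near chromosome 12 and 0.02 near chromosome 17, and the chromosome 12 value was between 0.04 and 0.08 without DNMT3B KO replicate 1 or 3 or HCT116 replicate 3. RARG, a retinoic acid receptor gene beyond the KRT18 end of the chromosome 12 cluster, was at 44.3 ± 2.65 CPM in DNMT3B KO and 85.1 ± 2.05 CPM in HCT116 cells, and TNS2, which encodes a focal adhesion protein, at 8.92 ± 0.856 CPM in DNMT3B KO and 34.7 ± 8.65 CPM in HCT116 cells (SD, n = 3 each). On chromosome 17, IGFBP4, a binding protein of insulin-like growth factors, was at 1.004 ± 0.224 CPM in DNMT3B KO and 0.0693 ± 0.0355 CPM in HCT116 cells, and the unnamed gene AC018629.1 at 6.54 ± 0.276 CPM in DNMT3B KO and 2.18 ± 0.242 CPM in HCT116 cells. IGFBP4 reached the filter on low counts through its DNMT3B KO libraries, which favoured a higher call. The number of neighbours called changed with single libraries. Near chromosome 12, 2 were higher without DNMT3B KO replicate 1 or 3. Near chromosome 17, 5 were higher without DNMT3B KO replicate 1, and 3 were lower without DNMT3B KO replicate 2 or 3 or HCT116 replicate 1.

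Of 20 tested genes whose proteins anchor or organise keratin filaments, 11 were lower, 1 was higher and 8 were not called, with a median log2 fold change of -0.39. Over all tested genes 15.1% were lower and 12.9% higher. This list was chosen with earlier results of these data known, so the difference may reflect that choice. DSC3, a desmosomal cadherin of stratified epithelium, was at 2.92 ± 0.430 CPM in DNMT3B KO and 21.7 ± 4.34 CPM in HCT116 cells (log2 fold change -2.90, adjusted p = 3.9e-05). JUP, the junction protein plakoglobin, was at 155 ± 6.56 CPM in DNMT3B KO and 299 ± 43.3 CPM in HCT116 cells, and the cytolinker gene DST at 126 ± 13.1 CPM in DNMT3B KO and 249 ± 53.5 CPM in HCT116 cells (SD, n = 3 each). The member that rose was EPPK1, which encodes the keratin-binding protein epiplakin, at 46.3 ± 3.11 CPM in DNMT3B KO and 25.2 ± 3.28 CPM in HCT116 cells. DSP, desmoplakin, which ties keratin filaments to the desmosome, was not called (log2 fold change -0.08 with standard error 0.10 and adjusted p = 0.58). The count of lower genes was 7, 6, 7 and 6 without DNMT3B KO replicates 1, 2 and 3 and without HCT116 replicate 1, and 7 with upper-quartile scaling. The count of higher genes was 2 with that scaling and without HCT116 replicate 3.

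Among other intermediate filament genes, 3 of 11 tested were higher, which is 27.3% called and close to the 28.1% over all tested genes (12.9% higher). By edgeR 0 were lower (1 at an unadjusted p under 0.05), and by DESeq2 also 0, while 1 was lower with a replicate block or without HCT116 replicate 2 and 2 without HCT116 replicate 3. VIM, the filament protein of mesenchymal cells, was at 41.0, 35.3 and 42.0 CPM in DNMT3B KO and 9.12, 5.43 and 7.50 CPM in HCT116 libraries (log2 fold change 2.42 with standard error 0.19 and adjusted p = 7.6e-05). NES, the nestin gene of progenitor cells, was at 120, 97.5 and 133 CPM in DNMT3B KO and 31.3, 32.1 and 31.02 CPM in HCT116 libraries (log2 fold change 1.89 with standard error 0.12 and adjusted p = 2.8e-05). The third, GFAP, was named after its values were seen and stayed under 0.7 CPM. The nuclear lamin gene LMNA was not called (log2 fold change -0.10, adjusted p = 0.46).

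Genes of the cornified envelope and stratified differentiation mostly did not pass the filter on low counts. Of 21 genes 7 were tested, of which 4 were lower and 1 was higher, or 71.4% called against 28.1% of all tested genes. This list too was chosen with earlier results known, and the difference may reflect that choice. The epithelial checkpoint protein gene SFN (stratifin) was at 83.2 ± 5.52 CPM in DNMT3B KO and 241 ± 1.73 CPM in HCT116 cells, and the kallikrein protease genes KLK7 and KLK10 at 8.47 ± 1.21 and 0.710 ± 0.167 CPM in DNMT3B KO, against 27.6 ± 4.14 and 20.8 ± 3.99 CPM in HCT116 (SD, n = 3 each). KLK5 had 1 count over the DNMT3B KO libraries and 245 over the HCT116 libraries, or 267.9 times as much per library size in HCT116, with 47.6 to 10620 as the exact 95% interval for counting error. KLK5 reached the filter through its HCT116 libraries, which favoured a lower call, so the share called in this list rests partly on the filter. KLK5, KLK7 and KLK10 lie together on chromosome 19 (50943303 to 51020175), so these calls do not come from separate parts of the genome. CSTA, a protease inhibitor of the cornified envelope, was the member that rose (7.16 ± 0.230 CPM in DNMT3B KO and 4.403 ± 0.184 CPM in HCT116), and it was named after its values were seen. IVL and LORICRIN, which encode envelope precursors, had no count in any library.

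Of 13 tested genes of transcription factors that act on keratin genes or epithelial programmes, 8 were lower, 0 were higher (1 at an unadjusted p under 0.05) and 5 were not called by edgeR, with a median log2 fold change of -0.67. The share called was 61.5%, against 28.1% of all tested genes (15.1% lower). As with the other lists, earlier results were known when it was chosen, and the difference may reflect that choice. By DESeq2 9 were lower and 1 was higher, and 1 was higher by edgeR without HCT116 replicate 2. GRHL2 was at 3.87, 5.20 and 3.96 CPM in DNMT3B KO and 28.4, 34.7 and 27.4 CPM in HCT116 libraries, and ELF3 at 10.98, 13.6 and 13.7 CPM in DNMT3B KO and 77.6, 145 and 71.4 CPM in HCT116 libraries. Both are regulators of epithelial genes, and no DNMT3B KO library reached any HCT116 library. OVOL1 fell by 1.02 and KLF5 by 0.51 on the log2 scale (adjusted p = 0.0051 and 0.0064). The intestinal factor CDX2 was not called (log2 fold change -0.14 with standard error 0.10 and adjusted p = 0.33), and TP63, the master regulator of stratified epithelium, was under 0.2 CPM in every library. Without DNMT3B KO replicate 1, 2 or 3 or HCT116 replicate 1, 5 of these factors were lower.

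Within HCT116, the libraries did not rank alike for all keratins. All 5 tested keratins of chromosome 12 (KRT7, KRT8, KRT18, KRT80 and KRT81) were lowest in replicate 2 and highest in replicate 3, while KRT19, KRT20 and KRT23 of chromosome 17 were highest in replicate 2. The coefficient of variation was larger in HCT116 than in DNMT3B KO for 8 of 9 tested keratins, with KRT23 the exception. The same count was not made over all tested genes, so the wider spread is not shown to be particular to keratins. In HCT116 the coefficient reached 47.0% for KRT80 and 68.8% for KRT81, against 14.6% and 18.8% in DNMT3B KO. Even so, without HCT116 replicate 2 the counts called stayed at 2 higher and 6 lower.

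Markers of other cell types were low, with some exceptions. Summed over 9 blood and immune cell markers the level was 17.9 to 22.9 CPM in DNMT3B KO and 6.35 to 16.9 CPM in HCT116 libraries, of which most was CD68. By edgeR 2 of 5 tested blood and immune markers were higher in DNMT3B KO, and 3 by DESeq2. Of all tested genes edgeR called 28.1%, 12.9% higher and 15.1% lower, and these marker lists are short. PTPRC was called higher (0.236 to 0.335 CPM in DNMT3B KO and 0 to 0.0157 CPM in HCT116) and was named after its values were seen, while CD3E, CD14 and HBB stayed under 0.1 CPM. PTPRC reached the filter on low counts through its DNMT3B KO libraries, which favoured a higher call. Over 9 fibroblast markers the sum was 15.4 to 17.97 CPM in DNMT3B KO and 9.98 to 19.9 CPM in HCT116, of which COL1A1 made up 12.4 to 15.7 CPM in DNMT3B KO and 9.64 to 19.3 CPM in HCT116, with DCN, LUM, FAP and COL3A1 at 0 to 0.110 CPM. PDGFRB was the fibroblast marker called, at 2.45 ± 0.309 CPM in DNMT3B KO and 0.314 ± 0.112 CPM in HCT116 cells (SD, n = 3 each). The 6 endothelial markers summed to 1.49 to 2.02 CPM in DNMT3B KO and 0.674 to 1.596 CPM in HCT116, and 0 of 2 tested were called by edgeR or DESeq2 (0 at an unadjusted p under 0.05). The part of these genes in the keratin results was not tested. Among 11 colorectal epithelium markers 8 were tested, and 50% of these were called, against 28.1% of all tested genes. CDH1, CLDN4 and CLDN7 were lower, and VIL1, which was low in either line, was higher. CDH1 (E-cadherin) was at 21.8 ± 1.01 CPM in DNMT3B KO and 70.8 ± 17.7 CPM in HCT116 cells (SD, n = 3 each). Leaving out DNMT3B KO replicate 1, 2 or 3 left 1 of these markers lower, and 3 were higher without HCT116 replicate 2. With at least 1 CPM required in 3 libraries, 0 of them were higher by edgeR.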

How the data were processed

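Stranded mRNA-seq libraries, made from extracted total RNA of 3 DNMT3B KO and 3 HCT116 samples, were analysed, and groups followed the GEO labels. The authors made the deposited estimated counts per gene, per the labels with STAR and Salmon on hg38, and per the study's methods with nf-core/rnaseq v3.12.0 and Ensembl 103 (GENCODE 37) annotation. How strand was set in the counting is not given in the sources used here. Values were rounded to integers before testing. In R 4.3.3, genes were filtered with filterByExpr and normalized by TMM, and edgeR 4.0.16 tested genotype, without further terms, by its quasi-likelihood F test, with Benjamini-Hochberg adjustment over all tested genes and calls at an adjusted p under 0.05. Standard errors were the absolute log2 fold change divided by the square root of F. The fit was tested on simulated data. Positions and transcript lengths came from GENCODE 44, in which 60437 of 60666 IDs were matched, and levels per kilobase used the mean length of a gene's annotated transcripts. Uniqueness is the share of 50-base stretches of a gene's annotated transcripts that occur in no other gene. Totals of 55436267 to 68274783 counts per library limit the precision for genes with few counts, and counting intervals cover counting error only.

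The 10 keratins and the gene lists were chosen with earlier results of these data known. All 10 were named. Of the other keratins up to 8 called genes, and of each other list or cluster neighbourhood up to 4, were named if they had at least 1 CPM in a cell line, by smallest adjusted p; DNMT3B and pseudogenes with at least 1 CPM were also named. Any other gene named for a call outside this rule, including members of the lists that were not called, was chosen after its values were seen. Alternatives were RLE and upper-quartile scaling, no filter, a filter of at least 1 CPM in 3 libraries, DESeq2 1.42.0, a replicate block, pseudogenes summed with their parents, a 1000 kb window around the clusters and leaving out each library. The values of 1 marker gene are not reported here.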

Additional observations from a re-analysis of the deposited data

How the results depend on the processing

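The tested keratins were refitted under 13 alternatives, 117 fits in all. The direction of change was kept in 117 and the side of the threshold in 114; the exceptions were KRT10 without DNMT3B KO replicate 1 or 3 and KRT81 without HCT116 replicate 3. Leaving out each library gave 2 to 3 of the 10 keratins higher and 5 to 6 lower. Over all tested genes it gave 1283 to 2868 higher and 1758 to 3143 lower, against 2196 higher and 2565 lower with all libraries. With at least 1 CPM required in 3 libraries, 0 of the other keratins were higher and 1 was lower by edgeR, against 4 and 3, since the rest were no longer tested; leaving out each library gave 3 to 4 higher and 2 to 3 lower. The median log2 fold change near the chromosome 12 cluster, -0.08, ranged from -0.0983 to 0.0802 when each library was left out, and near the chromosome 17 cluster, 0.02, it ranged from 0.01 to 0.11 and was -0.11 with a 1000 kb window. The cause was not tested. Leaving out each library moved the log2 difference of all keratins per kilobase between -1.22 and -1.11, that of type I over type II between -0.34 and -0.06, and that of KRT18 over KRT8 between -0.07 and 0.00. With a replicate block 4214 genes were called, against 4761, and 2 of the 10 keratins were higher and 6 lower. Deviations of same-numbered libraries correlated at 0.0641, -0.00963 and 0.122, and DNMT3B KO replicate 1 correlated best with HCT116 replicate 2, so the numbers were not taken to pair the samples. KRT17, KRT20 and KRT23 in DNMT3B KO rest on few counts.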
